A study of Homo sapiens with 12 samples.

Results

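The RNAs described here are nuclear non-coding RNAs: the U1 spliceosomal RNA (RNU1-1 and RNU1-3), the U6 spliceosomal RNA (RNU6-1), the 7SK RNA (RN7SK), the telomerase RNA (TERC), the RNA subunit of RNase P (RPPH1) and the long RNAs MALAT1 and NEAT1. Every probe that the platform annotation gives to one of these 8 genes by symbol was taken. There were 6 such probes, 1 for each of RNU1-1, RNU1-3, RNU6-1, RN7SK, TERC and RPPH1, among 15329 probes and 9647 named genes in the table. No probe carried the symbol MALAT1 or NEAT1 in the annotation used, which leaves 2895 of the probes unnamed, so these 2 RNAs were not analysed here.

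HEK293T cells, a human embryonic kidney line that expresses the SV40 large T antigen, received 200 pmol of a biotin-tagged synthetic microRNA duplex, of miR-199a-5p for 2 of the groups and miR-424-3p for the other two, and were harvested after 24 h. The duplex and the RNA bound to it were captured on streptavidin beads (pull-down), and RNA that had not been pulled down served as the input of the same microRNA. Both kinds of RNA were hybridised to Illumina Human HT-12 arrays, 3 for each of the 4 groups, so that every cell measured, input or pull-down, had received an exogenous duplex. Mock-transfected cells are not analysed here, and the comparisons therefore show recovery on the beads relative to the input, not a change relative to untreated cells. The labels do not tie a replicate to a separate culture. A legend in the study's supplements says that the transfections were independently replicated 3 times. The p-values measure the spread between these arrays, and which array came from which transfection is not stated. The methods of the study describe capture from a cleared lysate made with a mild detergent. The same legend calls the inputs total RNA and names miR-199b-5p where the labels have miR-199a-5p. The labels were followed. Of the markers listed for the line, 4 had a named probe, VIM at the 97.2 percentile of all probe means, NEFM at 62.7, INA at 60.5 and NEFL at 31.5. Among genes of other tissues COL1A1 lay at the 6.75 percentile, ALB at 23.5 and CDX2, an intestinal regulator, at 85.9, above 3 of the 4 markers of the line.

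Spliceosomal RNAs act in the nucleus as the RNA cores of protein particles: U1 pairs with the 5′ splice site, and U6 forms part of the catalytic centre of the spliceosome. 7SK holds the elongation factor P-TEFb in an inactive complex, TERC carries the template from which telomerase copies telomere repeats, and the RNase P RNA cleaves the leader from precursor tRNAs. MicroRNAs in turn act mainly on messenger RNAs in the cytoplasm, through base pairing of an Argonaute-bound guide strand, which in most described interactions begins at the seed near its 5′ end. None of the 6 measured RNAs is known chiefly as a microRNA target, and their mature forms carry no long poly(A) tail, the feature from which linear amplification kits of the kind used here usually prime. The part of this feature in the values was not tested.

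The 2 guide strands are shown because the groups are labelled by these microRNAs. The study's table of duplex sequences lists neither of them, so the transfected duplexes were not compared with the sequences below. RefSeq lists both mature sequences (GRCh38.p14). They are written 5′ to 3′ with the seed, bases 2 to 8, in capitals, and these seeds differ.
hsa-miR-199a-5p: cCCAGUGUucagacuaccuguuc
hsa-miR-424-3p: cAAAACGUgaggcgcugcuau
The first is made from 2 loci, MIR199A2 at chr1:172144592-172144614 and MIR199A1 at chr19:10817469-10817491, and the second from MIR424 at chrX:134546644-134546664, all on the minus strand.

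The arrays agreed closely. The median normalized log2 signal lay between 9.15 and 9.21 on all 12, arrays of the same group correlated at r = 0.983 to 0.994 across probes, and a pull-down correlated with an input at r = 0.907 to 0.956. The 6 probes covered most of the range of signal. The probe for RNU6-1 was at the 93.7 percentile of all probe means, those for RNU1-1, RN7SK and RNU1-3 at 58.4, 57.3 and 52.1, and those for RPPH1 and TERC at 21.7 and 12.5. The lowest probe mean was 7.67 and the means of TERC and RPPH1 were 8.01 and 8.22, in a range where the transformation used by the authors compresses differences.

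**Figure D1:**
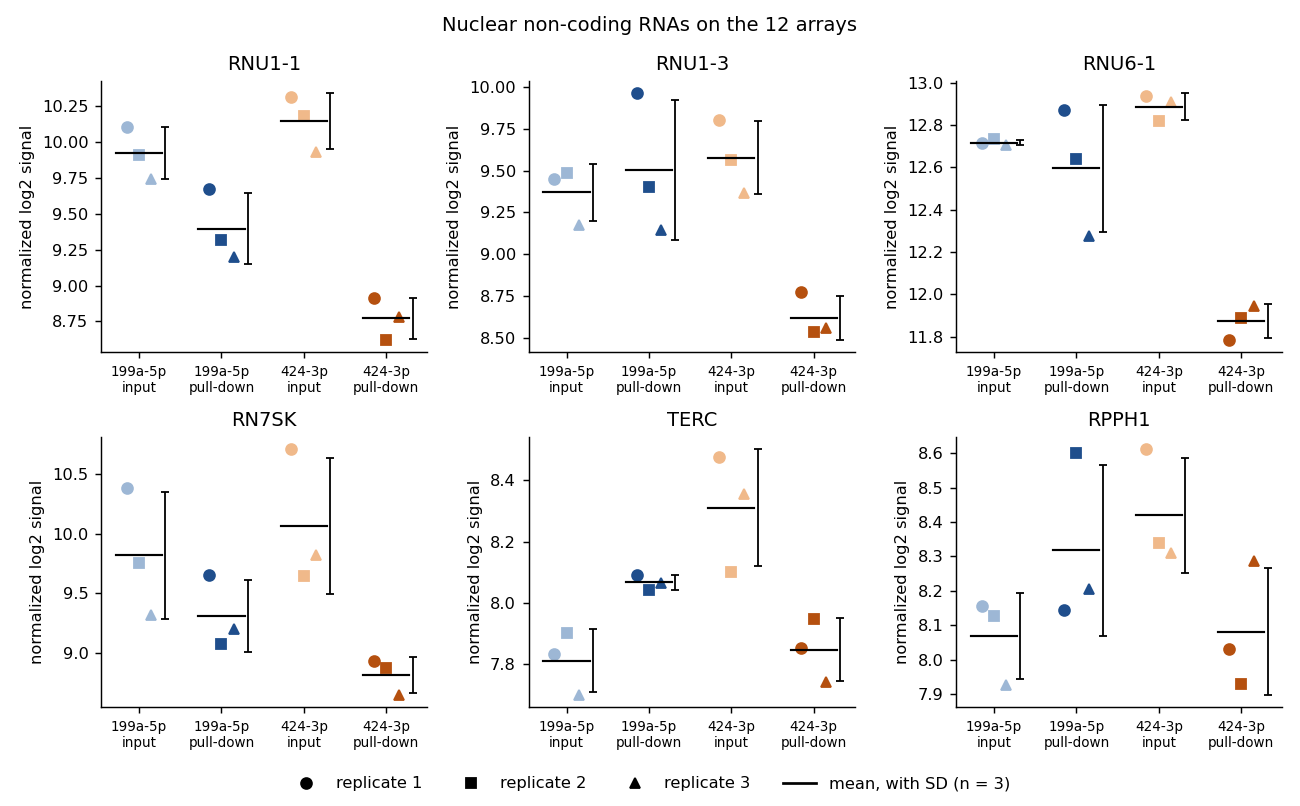
Normalized log2 signal (y axis, a separate scale for each RNA) of the 6 probes on the 12 arrays, grouped by microRNA and fraction; symbols mark the replicate, the horizontal line is the mean of 3 arrays and the bar beside it the SD. For RNU1-1, RNU1-3, RNU6-1 and RN7SK the 3 miR-424-3p pull-down arrays lie below all other arrays. TERC and RPPH1 are lowest on average in the miR-199a-5p input. The share of all probes with the miR-424-3p pull-down arrays below all others was not taken.

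With miR-424-3p, all 6 measured RNAs were lower in the pull-down than in the input, with log2 differences from -1.37 to -0.34. With miR-199a-5p, only RNU1-1 was called lower, none was called higher, and the 6 differences lay between -0.53 and 0.26. Calls required an adjusted p under 0.05 (limma, one-sided in each tail, Benjamini-Hochberg over all probes). Against this stand 28.8% of all probes called lower and 26.3% called higher with miR-424-3p, and 25.9% lower and 25.6% higher with miR-199a-5p. The 1 call in 6 with miR-199a-5p is thus near the background, and the 6 in 6 with miR-424-3p is above it. The members were chosen with earlier results of these data known, so such counts are a description and no test. RNU1-1 and RNU1-3 both stand for U1, so counts out of 6, here and below, include U1 by both probes. The median log2 difference of the 6 probes was -0.99 for miR-424-3p and 0.01 for miR-199a-5p, where the medians of all probes were -0.02 and 0.00. These values describe the RNA captured relative to the input, and fewer molecules bound to the beads cannot be told apart from a lower share of the labelled RNA.

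RNU1-1 is one of several genes that encode the U1 RNA. Its log2 signal in the miR-424-3p input was 10.31, 10.18 and 9.93 on the 3 arrays, and in the pull-down 8.91, 8.62 and 8.78. In the miR-199a-5p input it was 10.10, 9.91 and 9.74, and in the pull-down 9.67, 9.32 and 9.20. The 4 groups fell in the order miR-424-3p input, miR-199a-5p input, miR-199a-5p pull-down and miR-424-3p pull-down, and only the 2 inputs overlapped. The difference was -1.37 ± 0.14 (SE, n = 3 arrays in each group) with miR-424-3p (adjusted p = 1.76e-06), a 2.58-fold lower signal, and -0.53 ± 0.14 with miR-199a-5p (adjusted p = 0.00573), a 1.44-fold lower signal.

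RNU1-3, a second U1 gene, shared the first pattern and not the second. Its signal fell from 9.80, 9.56 and 9.37 in the miR-424-3p input to 8.77, 8.53 and 8.56 in the pull-down. With miR-199a-5p it was 9.45, 9.49 and 9.17 in the input and 9.96, 9.40 and 9.15 in the pull-down, so that the pull-down arrays spread around the inputs on both sides. The difference was -0.96 ± 0.17 (SE) with miR-424-3p (adjusted p = 3.22e-04) and 0.13 ± 0.17 with miR-199a-5p (adjusted p = 0.547), the latter with a 95% confidence interval from -0.24 to 0.51. The sign of this last value rests on 1 array, since without miR-199a-5p pull-down replicate 1 it was -0.10.

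U1 genes are near-identical copies, and each probe may therefore read more than the gene it is named for. Besides the 2 members, the annotation names probes for RNVU1-18 and RNVU1-7, variant U1 genes that came up through their likeness to RNU1-3. Their closeness to RNU1-3 on the same arrays is therefore a description and no separate support. With miR-199a-5p their differences were 0.14 ± 0.17 (SE, adjusted p = 0.521) and 0.16 ± 0.17 (adjusted p = 0.459), close to the 0.13 of RNU1-3. With miR-424-3p they were called lower, at -0.99 ± 0.17 (adjusted p = 2.11e-04) and -1.03 ± 0.17 (adjusted p = 1.46e-04). RNU1-1 thus had the lowest of the 4 values in both comparisons. Across the 12 arrays the other 3 probes correlated with each other at r = 0.976 to 0.986, and RNU1-1 with each of them at r = 0.831 to 0.844.

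The separation was taken within each array as the log2 signal of RNU1-1 minus that of RNU1-3. This difference averaged 0.55 ± 0.12 (SD, n = 3) in the miR-199a-5p input and -0.11 ± 0.17 in the pull-down, a shift of -0.66, and the arrays of the groups did not overlap. With miR-424-3p it averaged 0.56 ± 0.05 in the input and 0.15 ± 0.07 in the pull-down, a shift of -0.41 and again without overlap. This pair was chosen after its values were seen, so the shift is given as a description with no test. Which U1 copies each probe detects was not tested.

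**Figure D2:**
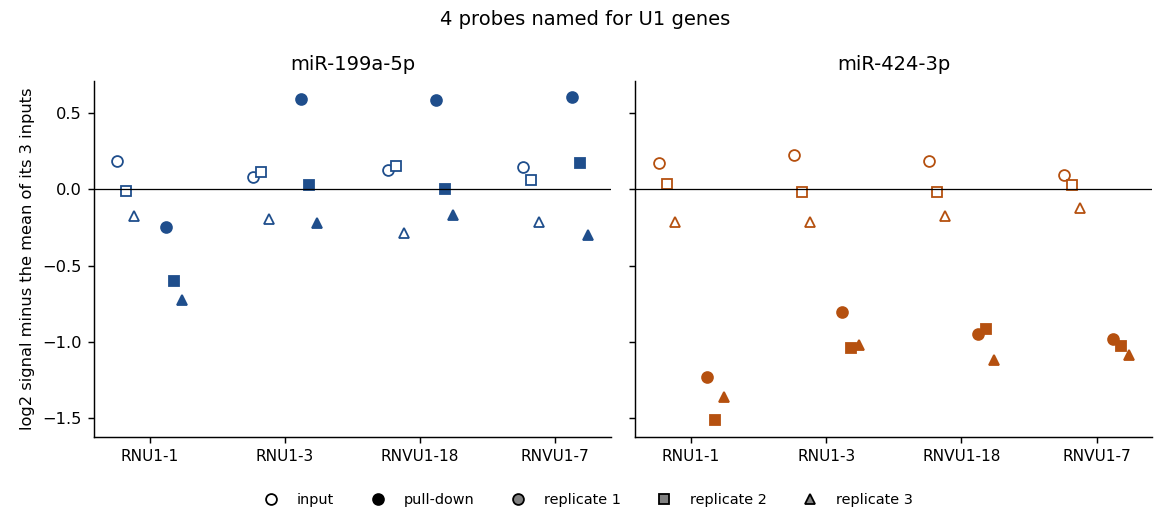
Log2 signal of 4 probes named for U1 genes, each expressed relative to the mean of its 3 input arrays (y axis), for miR-199a-5p (left) and miR-424-3p (right); open symbols are inputs, filled symbols pull-downs, and the symbol shape gives the replicate. With miR-424-3p all pull-down arrays lie below all inputs, as for 33.6% of all probes. With miR-199a-5p this holds for RNU1-1 alone (29.5% of all probes). There replicate 1 of the pull-down is the highest array for the other 3 probes.

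The probe for RNU6-1 lay near the upper end of all probe means. In the miR-199a-5p input it measured 12.71, 12.73 and 12.71, and in the miR-424-3p input 12.94, 12.82 and 12.91, so the inputs did not overlap although they differed by only 0.17. The miR-424-3p pull-down gave 11.79, 11.89 and 11.94. The miR-199a-5p pull-down spread over 12.87, 12.64 and 12.28, an SD of 0.30 against 0.01 in its input. The difference was -1.01 ± 0.12 (SE) with miR-424-3p (adjusted p = 7.45e-06), a 2.02-fold lower signal, and -0.12 ± 0.12 with miR-199a-5p (adjusted p = 0.421, 95% confidence interval -0.38 to 0.14). Without miR-199a-5p pull-down replicate 3 the latter was 0.04.

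RN7SK had the largest standard error of the 6. Its input values were 10.38, 9.76 and 9.32 with miR-199a-5p and 10.72, 9.65 and 9.83 with miR-424-3p, where replicate 1 was the highest array both times. The pull-downs gave 9.65, 9.08 and 9.20 with miR-199a-5p and 8.93, 8.87 and 8.64 with miR-424-3p. The 3 miR-424-3p pull-down arrays were below all others, and the remaining groups overlapped each with the next. The difference was -1.25 ± 0.27 (SE) with miR-424-3p (adjusted p = 0.00126), and -0.51 ± 0.27 with miR-199a-5p (adjusted p = 0.129, 95% confidence interval -1.09 to 0.07). The second value depended on which arrays were used. It was called without miR-199a-5p input replicate 3, at -0.76 (adjusted p = 0.0357), and with array weights, at -0.52 (adjusted p = 0.0297), and over all arrays left out in turn it ranged from -0.76 to -0.23.

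TERC had small differences in both directions. Its signal was 7.83, 7.90 and 7.70 in the miR-199a-5p input and 8.09, 8.04 and 8.07 in the pull-down, so all pull-down arrays exceeded all inputs. With miR-424-3p it was 8.48, 8.10 and 8.35 in the input and 7.85, 7.95 and 7.74 in the pull-down, with no overlap in the other direction. The difference was -0.46 ± 0.10 (SE) with miR-424-3p (adjusted p = 0.00150). With miR-199a-5p it was 0.26 ± 0.10, which missed the threshold (adjusted p = 0.0511, 95% confidence interval 0.03 to 0.48). It passed in 4 of the other settings, quantile normalization (adjusted p = 0.0146), cyclic loess (0.0221), an intensity trend (0.0193) and a fit of only these 6 arrays (0.0464). The miR-424-3p pull-down and the miR-199a-5p input, the lowest groups, overlapped. Of all probes, 28.2% had every miR-199a-5p pull-down array above every input of that microRNA. For 33.6% every miR-424-3p pull-down array was below its inputs.

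RPPH1 passed the threshold by the smallest margin. Its signal in the miR-199a-5p input was 8.16, 8.13 and 7.93, and in the pull-down 8.15, 8.60 and 8.21. With miR-424-3p it was 8.61, 8.34 and 8.31 in the input and 8.03, 7.93 and 8.29 in the pull-down, so that the highest pull-down array lay next to the lowest input array. The difference was -0.34 ± 0.13 (SE) with miR-424-3p (adjusted p = 0.0441) and 0.25 ± 0.13 with miR-199a-5p (adjusted p = 0.140). The call with miR-424-3p was lost without input replicate 1 (-0.24, adjusted p = 0.169), input replicate 2 (-0.38, adjusted p = 0.0561), pull-down replicate 1 (-0.31, adjusted p = 0.108) or pull-down replicate 2 (-0.26, adjusted p = 0.159).

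**Figure D3:**
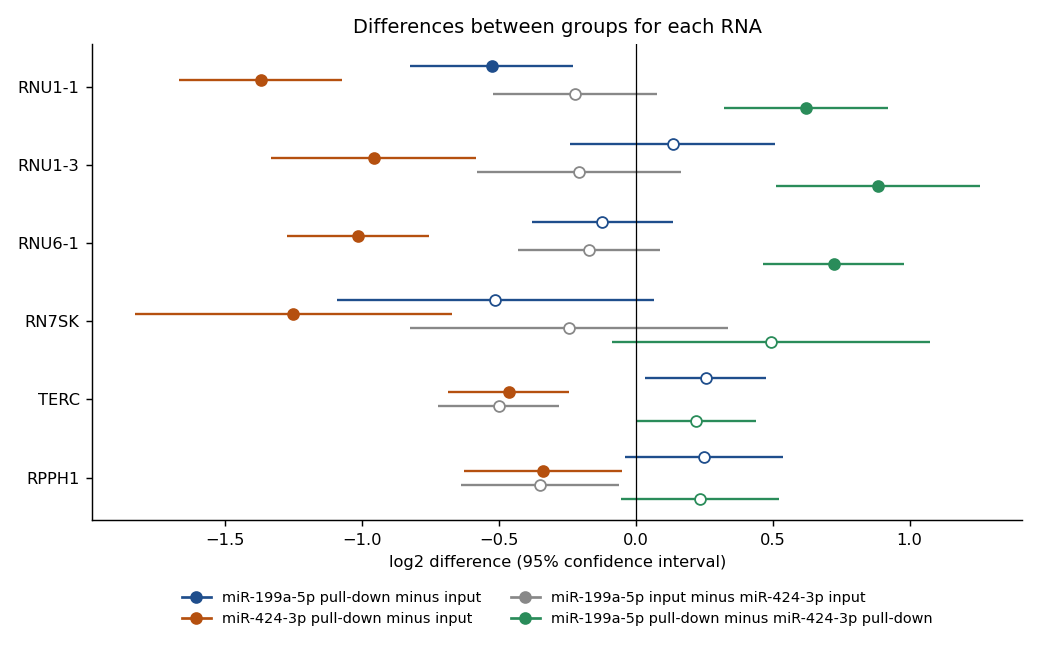
Log2 differences (x axis) with their 95% confidence intervals for 4 comparisons of each RNA; filled points passed an adjusted p of 0.05 in limma and open points did not. All 6 RNAs lie left of 0 for the miR-424-3p pull-down, from -1.37 for RNU1-1 to -0.34 for RPPH1, and all 6 input differences, which are open, lie left of 0 as well.

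The difference between the microRNAs was tested as an interaction, the pull-down difference with miR-199a-5p minus that with miR-424-3p. It was above 0 for all 6 RNAs with a median of 0.79, and was called for 5 of them, beside 18.8% of all probes called higher and 18% called lower in this comparison. The values were 1.09 ± 0.25 (SE) for RNU1-3 (adjusted p = 0.00368), 0.89 ± 0.17 for RNU6-1 (adjusted p = 0.00126), 0.84 ± 0.20 for RNU1-1 (adjusted p = 0.00444), 0.72 ± 0.15 for TERC (adjusted p = 0.00186) and 0.59 ± 0.19 for RPPH1 (adjusted p = 0.0271). For RN7SK the value was 0.74 ± 0.38 (adjusted p = 0.144), and it was called without miR-199a-5p input replicate 1 (1.02, adjusted p = 0.0382). The call for RPPH1 was lost on leaving out miR-199a-5p input replicate 3 (0.51), miR-199a-5p pull-down replicate 2 (0.44), miR-424-3p input replicate 1 (0.49), miR-424-3p pull-down replicate 1 (0.56) or miR-424-3p pull-down replicate 2 (0.51), with adjusted p between 0.0553 and 0.0710.

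Both the inputs and the pull-downs enter that difference, and they were compared in turn. In the inputs, all 6 RNAs had a lower mean with miR-199a-5p than with miR-424-3p, with differences from -0.50 to -0.17 and a median of -0.23, beside a median of 0.00 over all probes, 51.1% of which were below 0. None of the 6 was called (limma, two-sided, adjusted p from 0.154 to 0.833). Among all probes 0.00652% were called higher and 0.013% lower, 3 probes in total, while 8.36% had an unadjusted p under 0.05. Of the 6, TERC (-0.50 ± 0.10, unadjusted p = 2.48e-04) and RPPH1 (-0.35 ± 0.13, unadjusted p = 0.0209) did, and for these 2 and RNU6-1 the arrays of the inputs did not overlap, with miR-199a-5p the lower, as for 7.82% of all probes (6.42% did not overlap with miR-199a-5p the higher). For RN7SK the sign was not stable: its value of -0.24 became 0.01 without miR-199a-5p input replicate 3 and 0.08 without miR-424-3p input replicate 1.

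Between the pull-downs, 3 of the 6 were higher with miR-199a-5p (limma, two-sided), beside 26.6% of all probes called higher and 25.7% lower. These were RNU1-3 at 0.88 ± 0.17 (SE, adjusted p = 6.87e-04), RNU6-1 at 0.72 ± 0.12 (adjusted p = 1.76e-04) and RNU1-1 at 0.62 ± 0.14 (adjusted p = 0.00178), the 3 probes for the spliceosomal RNAs U1 and U6. RN7SK at 0.49 ± 0.27 (adjusted p = 0.142), RPPH1 at 0.24 ± 0.13 (adjusted p = 0.160) and TERC at 0.22 ± 0.10 (adjusted p = 0.0879) did not pass, although each did in at least 1 other setting: RN7SK in a fit of only these 6 arrays (adjusted p = 0.0233), RPPH1 with array weights (0.0446) and TERC with an intensity trend (0.0397). For TERC and RPPH1 the input difference was thus larger in size than the pull-down difference, whereas for the spliceosomal RNAs the pull-down difference was the larger.

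The replicates of a group were also read side by side. In the miR-424-3p input replicate 1 was the highest array for 6 of 6 RNAs, in the miR-199a-5p pull-down replicate 1 was the highest for 5 of 6, and in the miR-199a-5p input replicate 3 was the lowest for 6 of 6. Over all probes, an array was the highest of its group for 27.5% to 37.3%. The share of all probes for the lowest array was not taken. Deviations from the group means correlated across the same 12 arrays at r = 0.92 between RNU1-1 and RNU1-3, and at 0.72 between RNU1-1 and RN7SK. They did so at 0.70 between RNU1-3 and RNU6-1 and at 0.69 between RN7SK and TERC. TERC was at 0.15 with RNU1-1 and 0.17 with RNU6-1. RPPH1 was at 0.09 to 0.22 with the other RNAs, among them 0.11 with TERC. What the arrays share beyond their group was not tested.

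The genes whose brightest probe followed each RNA most closely over the 12 arrays were ranked by Pearson's r among 9530 candidates. For RNU1-3 they were RNVU1-18 (r = 0.986), RNVU1-7 (0.979) and RNY5 (0.976), a small cytoplasmic Y RNA. For RNU6-1 they were another Y RNA, RNY1 (0.973), with LYRM1 (0.966) and RIOK3 (0.965). RNU1-1 was followed by RPS20, which encodes a ribosomal protein (0.973), STARD3NL (0.973) and STOX1 (0.972), and RN7SK by FDX2 (0.962), DUS1L (0.957) and IMP4 (0.956). TERC was closest to SNORA57 (0.895), which like TERC carries an H/ACA domain, then FLT3LG (0.874) and CHKB-DT (0.848), and RPPH1 had no gene above 0.806 (EDEM2). The arrays share the group structure, so a high r can describe the same order of the 4 groups.

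Other non-coding RNAs, listed as nuclear, were counted next, as 90 genes taken by symbol, each by its brightest probe. They comprised 38 H/ACA and 34 C/D small nucleolar RNAs, which guide pseudouridylation and methylation of ribosomal RNA, 9 small Cajal body RNAs, which guide the same changes on spliceosomal RNAs, 6 further spliceosomal RNAs and 3 long RNAs. Where these RNAs lie in the cells was not tested, and the long RNAs need not be mainly nuclear. With miR-424-3p 64 of the 90 were lower and 3 higher, and with miR-199a-5p 36 were lower and 5 higher. Among all genes, 25.7% were lower and 30.3% higher with miR-424-3p, and 20.1% lower and 29.9% higher with miR-199a-5p. The median of the 90 was -0.38 for miR-424-3p and -0.17 for miR-199a-5p, beside 0.03 and 0.06 over all genes. In the interaction 24 of the 90 were called above 0 and 2 below, beside 20.9% of all genes above and 18.1% below, so that the count above 0 was near the background and the count below 0 was under it. Called or not, 16 of the 90 were below 0 in the interaction, beside 46.6% of all genes. The median was 0.20 beside 0.04 over all genes. In the inputs 65 of 90 had a lower mean with miR-199a-5p than with miR-424-3p, none of them called, beside 53.2% of all genes. Of these genes 81 had a mean signal under 9, and most small nucleolar RNAs lie in introns of host genes, so signal of the RNA and of its precursor cannot be told apart.

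Counts were then taken by class. Of the 34 C/D RNAs 22 were lower with miR-424-3p against 21 with miR-199a-5p, with medians of -0.30 and -0.30. Of the 38 H/ACA RNAs 28 were lower with miR-424-3p against 10 with miR-199a-5p, with medians of -0.51 and -0.11, and in the interaction 14 of them were called above 0 and none below, beside 3 and 2 of the C/D RNAs and the same 20.9% and 18.1% of all genes. The Cajal body RNAs gave 7 of 9 lower with miR-424-3p against 1 with miR-199a-5p. The class difference itself was not tested.

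Among the genes called, the largest differences with miR-424-3p were those of SCARNA18 at -1.67 ± 0.24 (SE, adjusted p = 4.70e-05), SNORA67 at -1.59 ± 0.12, SNORD36A at -1.42 ± 0.12 and SNORD68 at -1.23 ± 0.11. With miR-199a-5p they were SNORD96A at -1.50 ± 0.09 (adjusted p = 5.15e-08), the long RNA OIP5-AS1 at -1.11 ± 0.12, SNORA18 at -1.08 ± 0.12 and SNORD68 at -0.90 ± 0.11. The location of OIP5-AS1 was not tested. Of the 6 further spliceosomal RNAs 5 were lower with miR-424-3p, beside 25.7% of all genes. Among them were RNU4ATAC of the minor spliceosome at -0.98 ± 0.24 (adjusted p = 0.00317) and RNU4-2 at -0.66 ± 0.14 (adjusted p = 8.08e-04). With miR-199a-5p RNU4-2 was lower at -0.38 ± 0.14 (adjusted p = 0.0287), and RNU4ATAC was at 0.52 ± 0.24 (adjusted p = 0.0869).

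**Figure D4:**
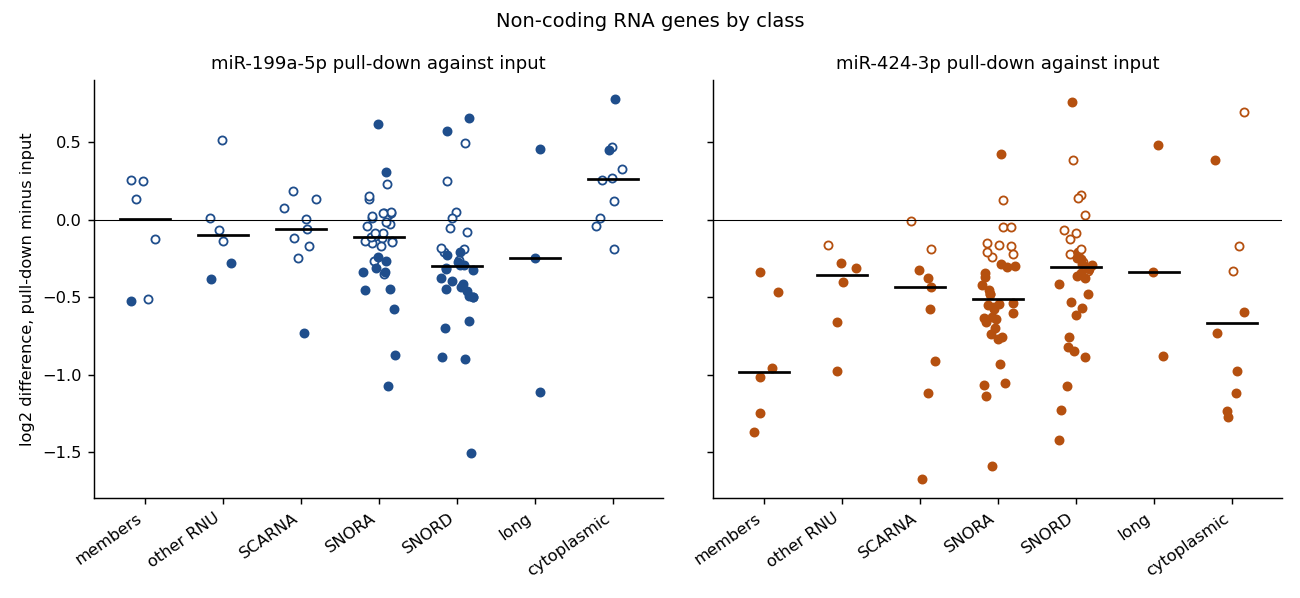
Log2 difference between pull-down and input (y axis) of the 6 nuclear RNAs described (members) and of other non-coding RNA genes by class, with 1 point for each gene, filled where called, and a line at the class median; horizontal scatter is for display. With miR-424-3p (right) the medians of all 7 classes are below 0, and with miR-199a-5p (left) those of the members and the cytoplasmic RNAs are 0.01 and 0.26.

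Non-coding RNAs that work in the cytoplasm were counted in the same way, since they resemble the nuclear ones in being short or untailed. Of 10 such genes 6 were lower and 1 higher with miR-424-3p (median -0.66), and none lower and 2 higher with miR-199a-5p (median 0.26). The shares of all genes were 25.7% lower and 30.3% higher with miR-424-3p, and 20.1% and 29.9% with miR-199a-5p. In the interaction 7 of 10 were called above 0 and none below (20.9% and 18.1% of all genes), and all 10 were below 0 in the comparison of inputs (53.2% of all genes), at a median of -0.29. The Y RNAs RNY1 (-1.27 ± 0.14, adjusted p = 3.01e-06) and RNY4 (-1.23 ± 0.27, adjusted p = 0.00139), the 18S ribosomal RNA gene RNA18SN5 (-1.12 ± 0.34, adjusted p = 0.0119) and the 5S gene RNA5S9 (-0.98 ± 0.27, adjusted p = 0.00590) were lower with miR-424-3p. RN7SL1, the RNA of the signal recognition particle, went the other way and was higher with both microRNAs, at 0.39 ± 0.10 with miR-424-3p (adjusted p = 0.00572) and 0.78 ± 0.10 with miR-199a-5p (adjusted p = 4.00e-05). Several of these genes have near-identical copies, so the gene read by the probe is uncertain. The lower signal with miR-424-3p was hence not limited to nuclear RNAs in these counts, and localisation and transcript type were not tested separately.

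The messenger RNAs of the proteins that bind the 6 RNAs were then followed, as lists of partners. Rose and fell, like higher and lower, describe here and below the pull-down relative to its input, and no change of expression. Each count is read against the shares of all genes given above, which with miR-424-3p were 25.7% lower and 30.3% higher and with miR-199a-5p 20.1% lower and 29.9% higher. U1 has 3 specific proteins. SNRPA, which binds a stem-loop of U1, rose by 1.79 ± 0.15 (SE, adjusted p = 2.20e-07) with miR-424-3p and was at -0.28 ± 0.15 (adjusted p = 0.126) with miR-199a-5p. SNRPC, which stabilises pairing with the splice site, fell with both, at -0.89 ± 0.10 (adjusted p = 5.90e-06) and -0.55 ± 0.10 (adjusted p = 4.47e-04). SNRNP70 did not pass with either (-0.20 ± 0.17 and 0.06 ± 0.17). The Sm proteins, which form a ring on U1 and most other spliceosomal RNAs, gave 5 of 7 genes lower and 1 higher with miR-424-3p, and 3 lower and 1 higher with miR-199a-5p. SNRPF at -0.95 ± 0.09 and SNRPG at -0.93 ± 0.10 were the largest with miR-424-3p, while SNRPD3 was higher with both microRNAs, at 0.41 ± 0.12 and 0.82 ± 0.12.

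U6 is bound by the LSM ring, by SSB (the La protein, which holds the 3′ end of new RNA polymerase III transcripts) and by proteins of the tri-snRNP. Of 20 such genes 8 were lower and 6 higher with miR-424-3p (all genes 25.7% and 30.3%), and 6 lower and 4 higher with miR-199a-5p (20.1% and 29.9%). LSM3 fell with both, at -1.26 ± 0.09 and -0.97 ± 0.09, and PPIH (-1.12 ± 0.12), SSB (-1.02 ± 0.11) and PRPF4 (-1.01 ± 0.10) were lower with miR-424-3p. With miR-199a-5p SNU13 (0.86 ± 0.14) and LSM6 (0.66 ± 0.15) were higher and LSM7 (-0.69 ± 0.13) lower.

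Of 10 genes of the 7SK particle and P-TEFb, 5 rose and 2 fell with miR-424-3p, and 3 were higher and 2 lower with miR-199a-5p. The counts with miR-199a-5p were near the shares of all genes (29.9% higher, 20.1% lower), and those with miR-424-3p stand beside 30.3% and 25.7%. Both subunits of P-TEFb were higher with both microRNAs: cyclin T1 (CCNT1) at 0.85 ± 0.11 for miR-424-3p and 0.81 ± 0.11 for miR-199a-5p, its kinase CDK9 at 0.34 ± 0.10 and 0.48 ± 0.10. LARP7, which binds the 3′ end of 7SK, was lower with miR-424-3p (-0.65 ± 0.13, adjusted p = 6.93e-04) and higher with miR-199a-5p (0.35 ± 0.13, adjusted p = 0.0370). AFF4, a scaffold of the super elongation complex, was lower with both (-0.67 ± 0.13 and -0.59 ± 0.13). MEPCE, which caps 7SK, was higher with miR-424-3p (0.46 ± 0.14, adjusted p = 0.0105) and at -0.01 ± 0.14 with miR-199a-5p.

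Telomerase proteins gave 4 of 11 genes lower and 1 higher with miR-424-3p, and 5 lower and 3 higher with miR-199a-5p, beside 25.7% and 30.3% of all genes with the first and 20.1% and 29.9% with the second. NOP10 (-1.01 ± 0.10) and DKC1 (-0.31 ± 0.09), core proteins of H/ACA particles, were lower with miR-424-3p, whereas NHP2, which completes that core, was higher with miR-424-3p (0.39 ± 0.14) and lower with miR-199a-5p (-0.73 ± 0.14). The assembly factors SHQ1 (-0.89 ± 0.10) and RUVBL1 (-0.89 ± 0.11) were lower with miR-199a-5p. RUVBL1 was also called lower with miR-424-3p (-0.37 ± 0.11). Protein subunits of RNase P and RNase MRP gave 5 of 11 lower and 2 higher with each microRNA, beside the same shares of all genes. With miR-424-3p POP5 (-1.31 ± 0.10), POP7 (-1.15 ± 0.11) and RPP40 (-0.95 ± 0.11) were lower, and with miR-199a-5p RPP25 was lower (-0.72 ± 0.11) and RPP14 (0.67 ± 0.11) and RPP40 (0.60 ± 0.11) higher.

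MALAT1 and NEAT1 belong to nuclear speckles and paraspeckles, and the messenger RNAs of the proteins of these bodies were counted as well, again beside 30.3% of all genes higher and 25.7% lower with miR-424-3p and 29.9% and 20.1% with miR-199a-5p. Of 14 paraspeckle genes 6 rose and 2 fell with miR-424-3p. The largest difference was that of NUDT21 (-1.22 ± 0.14), while RBM14 (1.17 ± 0.16), NONO (1.17 ± 0.15) and SFPQ (1.03 ± 0.18) rose. With miR-199a-5p 2 were higher and 4 lower, where RBMX (-0.80 ± 0.17) and again NUDT21 (-0.78 ± 0.14) led. Of 17 speckle genes 7 rose and 2 fell with miR-424-3p, with RNPS1 at 1.27 ± 0.12, SRRM2 at 1.05 ± 0.12 and PNN at 0.97 ± 0.16. With miR-199a-5p 5 were higher and 3 lower, with the splicing factor SRSF3 at -1.51 ± 0.16 and PNN again higher at 0.48 ± 0.16. The speckle counts with miR-199a-5p were near the shares of all genes.

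The machinery that makes and removes these RNAs was the last group. Of 24 genes for the transcription and 3′ end formation of spliceosomal RNAs, 13 were higher and 3 lower with miR-199a-5p, and 9 higher and 7 lower with miR-424-3p. The shares of all genes were 29.9% and 20.1% with the former and 30.3% and 25.7% with the latter, close to the counts with miR-424-3p. SNAPC1, of the complex that binds snRNA promoters, was at 1.26 ± 0.11 with miR-199a-5p, and INTS12, of the Integrator complex that cleaves the 3′ end, was higher with both (0.99 ± 0.13 for miR-199a-5p, 1.61 ± 0.13 for miR-424-3p). Of 16 genes of the nuclear exosome and its adaptors 9 were lower and 2 higher with miR-199a-5p, with PABPN1 at -1.04 ± 0.15 and ZCCHC8 at -0.99 ± 0.12. With miR-424-3p 6 were lower and 3 higher, and PABPN1 was called lower there as well (-0.76 ± 0.15). EXOSC1, a subunit of the exosome, was called lower at -0.82 ± 0.10 in the miR-199a-5p pull-down and called higher at 1.25 ± 0.10 in that of miR-424-3p.

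Where a gene named in these lists had further probes, some differed from the brightest. Other probes were at 0.09 for SRSF3, at 0.14 for SNAPC1 and at 0.28 for SNU13 and at 0.13 for CCNT1 with miR-199a-5p, none of these 4 called, and 1 of the other probes of RPP25L was lower (-0.61) with miR-424-3p where the brightest was higher (0.62). A further probe of SNU13 (0.53) and of CCNT1 (0.69) was called higher with miR-199a-5p, like the brightest. All 4 probes of NHP2 were lower with miR-199a-5p, but its other 3 probes did not pass with miR-424-3p, and both probes of LSM3, SNRPC and NOP10 agreed in the calls given.

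**Figure D5:**
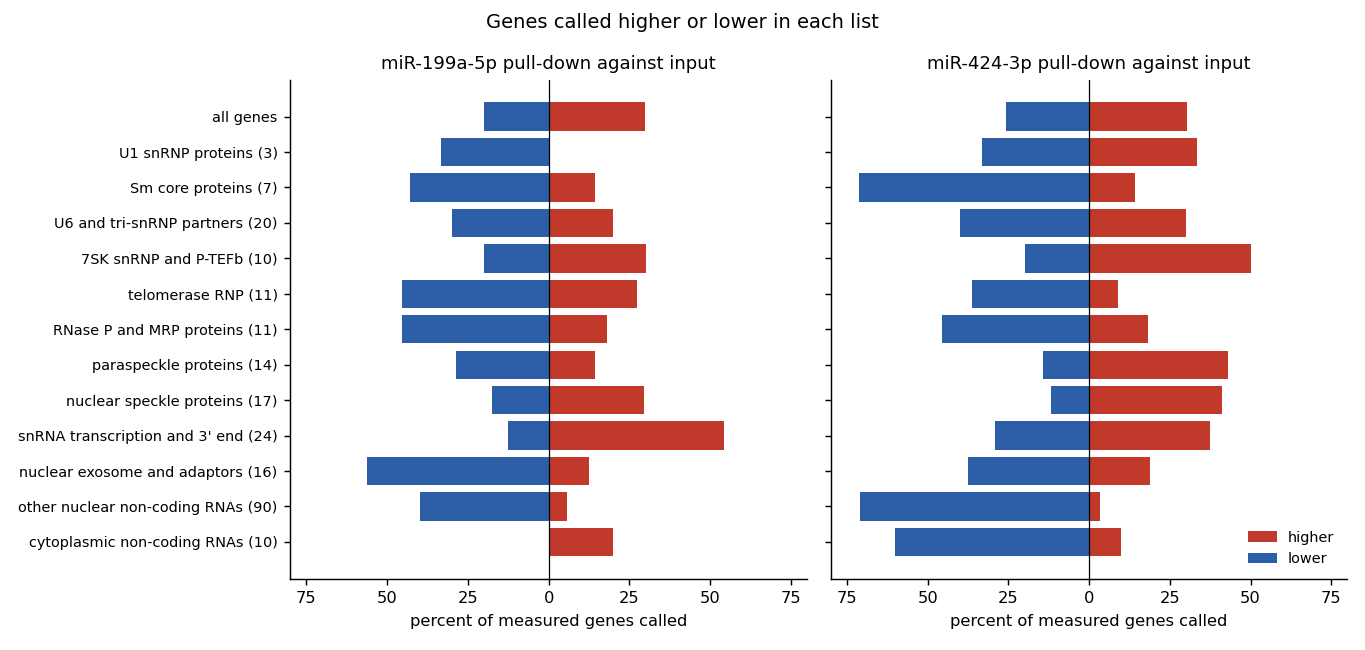
Percent of the measured genes called higher (right, red) and lower (left, blue) in each list, with the number of genes measured in parentheses and all 9647 genes at the top, for each microRNA. The 90 other nuclear RNAs reach 64 genes lower with miR-424-3p, while calls in the protein lists run in both directions except for the 3 U1 proteins with miR-199a-5p.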

How the data were processed

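RNA of 4 groups was measured on 12 Illumina HT-12 arrays, 3 for each group. The deposited values are log2 signals that the authors had normalized in lumi, for which the submitters' processing notes give version 2.2.1. According to the study's methods this comprised background adjustment, variance stabilization and robust spline normalization. The selection of the 15329 probes was not described in the sources read. A table of unnormalized signals was not used because its 24 columns of per-sample values match no sample label. Symbols came from the platform annotation (12432 probes with 1 symbol, 2 with several). All 12 arrays were fitted together in limma 3.58.1 (R 4.3.3; lmFit, eBayes), with one-sided tests in each tail for pull-down against input and for the interaction, two-sided tests otherwise, and Benjamini-Hochberg adjustment over all probes at 0.05. The code was tested on simulated data. Named were all member probes, up to 4 called genes per list with the largest change and others beside them chosen after their values were seen, and the 3 most similar genes per member. Members and lists were chosen with earlier results of these data known. Alternatives were further normalizations, a filter on dim probes, other fits and leaving out each array. The number of arrays limits precision.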

Additional observations from a re-analysis of the deposited data

Results flagged for a closer look

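For 5 of the 6 probes the difference between pull-down and input was itself different between the microRNAs. The interaction test in limma gave these calls (adjusted p under 0.05 over all probes), beside 18.8% of all probes called above 0 and 18% below. RNU1-1 and RNU1-3 both stand for U1. The enrichment with miR-199a-5p minus that with miR-424-3p was 0.84 for RNU1-1, 1.09 for RNU1-3, 0.89 for RNU6-1, 0.72 for TERC and 0.59 for RPPH1 on the log2 scale. The comparison contains the inputs, in which the same RNAs had lower means with miR-199a-5p, by log2 differences of -0.22, -0.21, -0.17, -0.50 and -0.35, none of them called. The part of that input difference in the result was not tested.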

How the results depend on the processing

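The miR-424-3p call held in every setting tried for RNU1-1, RNU1-3, RNU6-1 and RN7SK. TERC lost it only where a fold of at least 1.5 was also asked, and RPPH1 under quantile normalization (adjusted p = 0.0568), cyclic loess (0.0600), array weights (0.0751), the replicate block (0.0519), the fold minimum and 4 of the left-out arrays. With miR-199a-5p 1 member was called higher under quantile normalization, cyclic loess, the intensity trend and only the groups compared (TERC) and with array weights (RPPH1), in place of 0, and 2 were called lower with array weights and with the replicate block, 0 with the fold minimum and 1 to 2 with an array left out, in place of 1. RNU6-1 with miR-199a-5p changed sign under quantile normalization (0.020). With an array left out it ranged from -0.26 to 0.037, RNU1-3 with miR-199a-5p from -0.10 to 0.31, and RN7SK between the inputs from -0.52 to 0.083. Between the inputs TERC was the 1 member called lower with array weights and with the intensity trend. Of 488 values of single members, 451 kept direction and call.

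Over all probes, a mean of at least 9 left 8315 of 15329 to be tested, so its counts are out of fewer probes. They were 2580 higher and 2307 lower with miR-199a-5p, and 2618 higher and 2778 lower with miR-424-3p. In the interaction 1831 were lower and between the pull-downs 2437 were lower. Between the inputs 2 were higher and 5 lower. The fold minimum left 1644 higher and 1778 lower with miR-199a-5p, 1966 higher and 2131 lower with miR-424-3p, and 1894 and 1941 between the pull-downs. Between the inputs the counts higher and lower were 160 and 139 with array weights, 2 and 8 with the intensity trend and 4 and 4 with the replicate block, 2 were higher under quantile normalization and 0 with only the groups compared, and with an array left out they were 0 to 3 and 2 to 4. The cause was not tested.

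The replicate block moved no other count by over 1.5 times. It called RN7SK with miR-199a-5p (adjusted p = 0.0159), in the interaction (0.0203) and between the pull-downs (0.0185). Equal replicate numbers are not stated to mark shared cultures, and residuals of same-numbered arrays correlated at -0.10 to 0.51, so the numbers were not taken as pairs. Background correction from raw signals, a filter on detection p-values and the chip as a block were not run, since the columns could not be matched and no chip is given.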
